A study of Mus musculus with 7 samples.

Results

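The transcripts described here are 10 long noncoding RNAs of aged mouse skin: Malat1, Neat1, Kcnq1ot1, Meg3, Rian, Mirg, H19, Miat, Gas5 and Snhg1. They were selected with earlier results of these data in view, because Malat1 and Kcnq1ot1 were lower after ABT-263, and they cover RNAs kept in the nucleus, RNAs of imprinted clusters and spliced hosts of small nucleolar RNAs (snoRNAs). They are 10 of the 55450 genes in the count table, and all 10 were among the 17959 genes with enough reads to be tested. The values of Malat1 and Kcnq1ot1 chose the list and are given as a description, with no test, so a test is read for the other 8 only.

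Whole dorsal skin was sequenced in bulk from 24-month-old male wild type C57BL/6 mice. ABT-263 (navitoclax), an inhibitor of anti-apoptotic Bcl-2 proteins used to remove senescent cells, was applied to the back at 5 μM for 5 days (mice 476, 477 and 478), and control mice received the vehicle DMSO alone (mice 480, 481, 482 and 483). In both groups the hair had been clipped and removed with a depilatory lotion, the skin cleansed with ethanol, and the treated area covered with a semi-occlusive dressing. The skin was homogenized without separation of epidermis, dermis or underlying muscle, with 1 library per mouse from polyadenylated RNA.

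Long noncoding RNAs are transcribed and processed like messenger RNAs but are not translated into a protein. Some never leave the nucleus, where they build bodies such as paraspeckles, gather in splicing speckles or silence neighbouring genes in cis. Others are made mainly for what their introns or exons release, which are snoRNAs that guide ribosomal RNA modification or microRNAs, and their spliced remainder is exported and, for snoRNA hosts, removed by nonsense-mediated decay during translation. Imprinted long noncoding RNAs are made from only the maternal or only the paternal chromosome and lie in clusters with imprinted growth genes.

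Libraries held 20344364 to 43562330 counted read pairs, with all 3 of the ABT-263 mice above all 4 of the DMSO mice. Expression is given as CPM, read counts scaled to the depth of the library, with TMM normalization. A gene was called when its adjusted p-value from edgeR's quasi-likelihood test over all genes tested was under 0.05, and these p-values measure the spread between the mice. By this rule 4342 of the 17959 genes tested (24.2%) were called, with 2234 (12.4%) higher and 2108 (11.7%) lower in ABT-263 mice, and on total counts without TMM factors 2647 were higher and 1532 lower. Without DMSO mouse 481, 482 or 483 it was 2837, 1824 or 2063 genes, and without ABT-263 mouse 476 or 478 it was 2228 or 1735. Keratinocyte, fibroblast and skeletal muscle genes were abundant in every library. The 7 macrophage markers summed to 110 to 267 CPM after DMSO and 402 to 947 CPM after ABT-263, and the 6 neutrophil markers to 99.8 to 1820 CPM and 5097 to 8318 CPM. In bulk tissue, fewer cells of a type and less RNA per cell cannot be told apart.

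A stretch of each of the transcripts that chose the list is shown first, because RNA selected by its poly(A) tail can also be caught by an internal run of A, and both Malat1 and Kcnq1ot1 carry one. Both are transcript sequence, 5′ to 3′, from GENCODE M21 on GRCm38, with the run of A in capitals. The Malat1 stretch (chr19:5795918-5796089, minus strand) holds the uridine-rich motifs, the A-rich tract that folds back on them, and the transfer RNA-like sequence that follows the tract and is cut from the mature RNA. The Kcnq1ot1 stretch (chr7:143226905-143227025, minus strand) lies inside intronic sequence of Kcnq1 on the opposite strand.
Malat1 A run: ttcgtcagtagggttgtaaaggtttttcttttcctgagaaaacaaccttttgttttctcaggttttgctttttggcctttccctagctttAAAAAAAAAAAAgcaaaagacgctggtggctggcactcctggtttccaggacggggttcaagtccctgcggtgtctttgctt
Kcnq1ot1 A run: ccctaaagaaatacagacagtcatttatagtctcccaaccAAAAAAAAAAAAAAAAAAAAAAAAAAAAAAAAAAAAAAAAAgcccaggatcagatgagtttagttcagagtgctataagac

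Runs of 12 or more A were found in the longest annotated transcript of 4 of the 10 genes. Malat1 held 1 run, of 12 bases. Kcnq1ot1 held 8, the longest of 41 bases, Meg3 held 3, the longest of 16, and Rian held 1, of 15. The transcripts of Neat1, Mirg, H19, Miat, Gas5 and Snhg1 held none.

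Of the 8 RNAs that did not choose the list, 5 had a negative and 3 a positive log2 fold change after ABT-263, with a median of -0.42 beside 0.0022 over all genes tested. Meg3, Gas5 and Snhg1 were called lower and 0 were called higher, beside 11.7% lower and 12.4% higher of all genes tested. H19, 1 of the 8, was higher at an unadjusted p under 0.05 in edgeR and in the DESeq2 Wald test with adjustment. In 4 of the 8 every ABT-263 mouse lay below every DMSO mouse, and in 0 of the 8 above. Among all genes tested, 18.4% lay wholly below and 18.7% wholly above. All 3 calls stood close to the threshold: without ABT-263 mouse 476, without ABT-263 mouse 478, without DMSO mouse 482 or without DMSO mouse 483, 0 of the 8 were called.

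**Figure D1:**
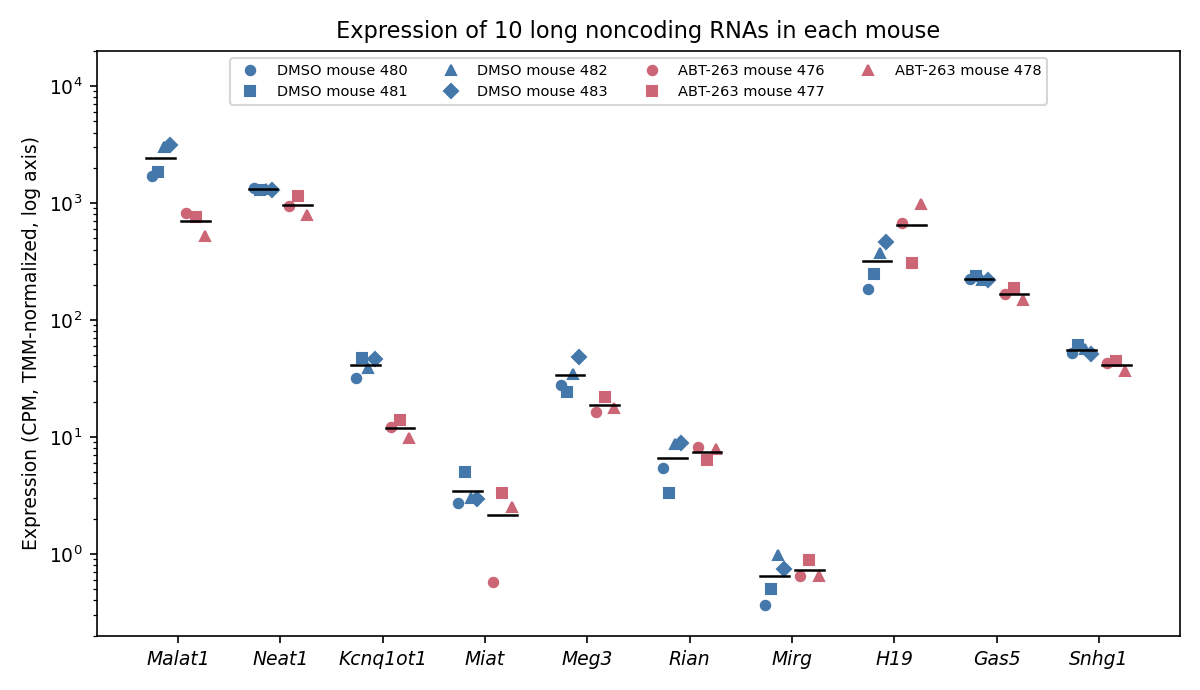
Expression of the 10 long noncoding RNAs in CPM (log axis) in each of the 4 DMSO mice (blue) and 3 ABT-263 mice (red), with a symbol for each mouse and a black line at the group mean. For Malat1, Neat1, Kcnq1ot1, Meg3, Gas5 and Snhg1 every red symbol lies below every blue one, and for Miat, Rian, Mirg and H19 the groups overlap.

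Malat1 (ENSMUSG00000092341) is an abundant RNA of nuclear speckles, bodies in which splicing factors are stored. It lies on chromosome 19 from 5795690 to 5802672 on the minus strand, and its longest annotated transcript is a single exon of 6983 bases. Malat1 was at 1699, 1832, 3030.2 and 3111 CPM in DMSO mice 480, 481, 482 and 483, and at 825, 756 and 521 CPM in ABT-263 mice 476, 477 and 478. The groups did not overlap, and the DMSO mice themselves fell into a lower and a higher pair. The group means were 2418 ± 756 CPM (SD, n = 4) and 701 ± 160 CPM (SD, n = 3), a ratio of 3.45 of DMSO to ABT-263 and a log2 fold change of -1.79 (standard error, SE, 0.32). Leaving out 1 mouse at a time gave log2 fold changes from -1.93 to -1.61.

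Kcnq1ot1 (ENSMUSG00000101609) is an imprinted antisense RNA, made from the paternal chromosome, that silences neighbouring genes in cis. It lies on chromosome 7 from 143203458 to 143296549 on the minus strand, inside Kcnq1, which is read from the other strand, and it is annotated as a single exon of 93092 bases. Kcnq1ot1 was at 31.8, 47.7, 39.1 and 46.3 CPM in DMSO mice 480 to 483, and at 12.2, 14 and 9.71 CPM in ABT-263 mice 476 to 478. Each ABT-263 mouse was below each DMSO mouse, and the DMSO mice did not pair as they did for Malat1. The means were 41.2 ± 7.32 CPM (SD, n = 4) and 12 ± 2.15 CPM (SD, n = 3), a ratio of 3.45 of DMSO to ABT-263 and a log2 fold change of -1.79 (SE 0.20). When trends of each library on transcript length and GC content were removed, the log2 fold change of Kcnq1ot1 was -1.19 and that of Malat1 was -1.85. Kcnq1ot1 is far longer than most transcripts, and its 93092 bases lie in the longest 10% of tested genes, which began at 6346 bases and had a median log2 fold change of -0.03.

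The Kcnq1ot1 promoter is shown because the annotation gives the gene 1 transcript, with a single start site. Counts per gene do not show where the transcripts behind the reads began. It covers 250 bases before and 50 after the start (RefSeq, GRCm38.p6, chr7:143296498-143296797, minus strand), with the CCAAT boxes (searched as CCAAT on both strands) in capitals. It held 3 of them, and 37.4% of the 32851 promoters in the table held at least 1.
Kcnq1ot1 promoter: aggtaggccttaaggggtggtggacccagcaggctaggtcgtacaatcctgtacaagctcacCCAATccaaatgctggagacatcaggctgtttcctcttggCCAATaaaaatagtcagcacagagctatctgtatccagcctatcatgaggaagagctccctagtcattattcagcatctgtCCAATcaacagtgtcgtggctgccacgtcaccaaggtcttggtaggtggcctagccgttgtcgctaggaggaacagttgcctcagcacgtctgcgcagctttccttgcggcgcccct

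Neat1 (ENSMUSG00000092274) is the RNA around which paraspeckles, nuclear bodies that hold RNA-binding proteins, are built. It lies on chromosome 19 from 5824708 to 5845478 on the minus strand, and its longest transcript spans 20771 bases without an intron. In DMSO mice 480 to 483 it was at 1335, 1295, 1304 and 1281 CPM, the tightest group of the 10 RNAs with a mean of 1304 ± 22.8 CPM (SD, n = 4). In ABT-263 mice 476 to 478 it was at 951, 1148.5 and 792 CPM. All 3 ABT-263 mice were below all 4 DMSO mice, but the log2 fold change was -0.44 (SE 0.19) and its adjusted p of 0.119 from edgeR missed the threshold. Its value was -0.18 with length and GC trends removed. A short and a long form of Neat1 share their start, and counts per gene do not separate them.

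Miat (ENSMUSG00000097767), another RNA retained in the nucleus, was first studied in the heart and nervous system. It lies on chromosome 5 from 112213228 to 112229395 on the minus strand, and 24.3% of its exon bases are shared with a gene on the other strand. It was at 2.74, 5.06, 3.03 and 2.96 CPM in DMSO mice 480 to 483 and at 0.572, 3.33 and 2.51 CPM in ABT-263 mice 476 to 478. ABT-263 mice 476 and 478 were below all DMSO mice, with mouse 476 the lowest, and mouse 477 was within their range, so the groups overlapped. The log2 fold change was -0.68 (SE 0.53, adjusted p = 0.373 from edgeR), and it was -0.23 without ABT-263 mouse 476.

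Meg3, Rian and Mirg are read one after another from the maternal chromosome in the Dlk1-Dio3 imprinted cluster on chromosome 12, on the plus strand. Meg3 (ENSMUSG00000021268, from 109541001 to 109571726) is a nuclear RNA linked to growth arrest. Rian (ENSMUSG00000097451, from 109603940 to 109661716) hosts a row of snoRNAs and microRNAs, and Mirg (ENSMUSG00000097391, from 109729764 to 109749460) hosts a cluster of microRNAs. Meg3 was called lower after ABT-263 and its downstream neighbours were not called, and the difference between them was not tested.

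Meg3 was at 27.7, 24.2, 34.7 and 47.8 CPM in DMSO mice 480 to 483 and at 16.4, 21.8 and 17.5 CPM in ABT-263 mice 476 to 478. Every ABT-263 mouse was below every DMSO mouse, and the nearest values of the groups were 21.8 and 24.2 CPM. The means of 33.6 ± 10.4 CPM (SD, n = 4) and 18.6 ± 2.84 CPM (SD, n = 3) gave a log2 fold change of -0.86 (SE 0.24, adjusted p = 0.0383 from edgeR). The call was lost with length and GC trends removed (adjusted p = 0.0662) and without DMSO mouse 482 (0.0887), DMSO mouse 483 (0.0701), ABT-263 mouse 476 (0.109) or ABT-263 mouse 478 (0.118). Markers of satellite cells and myoblasts, the muscle precursor cells, summed to 212, 319, 176 and 156 CPM in DMSO mice 480 to 483. In ABT-263 mice 476 to 478 they summed to 89.8, 82.6 and 75.0 CPM. Within the DMSO mice this order was the reverse of that of Meg3, with mouse 481 highest for the markers and lowest for Meg3. Of the 7 markers tested, 3 were lower (Myog, Myh8 and Ncam1) and 0 higher, beside 11.7% and 12.4% of all genes tested. Their part in the Meg3 value was not tested.

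Rian was at 5.40, 3.33, 8.67 and 8.87 CPM in DMSO mice 480 to 483 and at 8.22, 6.35 and 7.84 CPM in ABT-263 mice 476 to 478. The ABT-263 mice lay within the range of the DMSO mice, with a log2 fold change of 0.19 and a 95% interval from -0.59 to 0.96 (adjusted p = 0.713 from edgeR). Mirg, the least abundant of the 10, was at 0.368, 0.506, 0.975 and 0.739 CPM in DMSO mice 480 to 483 and at 0.644, 0.882 and 0.644 CPM in ABT-263 mice 476 to 478. Its counts were 9 to 35 per library, the groups overlapped, and the 95% interval of the log2 fold change of 0.17 ran from -0.81 to 1.16 (adjusted p = 0.796 from edgeR).

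The first Meg3 promoter is printed because Meg3 was called and its downstream neighbours were not (RefSeq, GRCm38.p6, chr12:109540746-109541045, plus strand). Capitals mark, in order, a CCAAT box, a cAMP response element (searched as TGACGTCA) and a TATA box (searched as TATAAA), each on both strands, and the TATA box here is read on both strands with an overlap. The cAMP response element was found in 1.79% and the TATA box in 13.6% of the 32851 promoters. The second start site listed for Meg3 held none of the 3 motifs. The promoter given for Rian held none of these. That for Mirg held a CCAAT box, but it lies at chr12:109734731-109735030, inside the gene as annotated here and not at its start.
Meg3 promoter: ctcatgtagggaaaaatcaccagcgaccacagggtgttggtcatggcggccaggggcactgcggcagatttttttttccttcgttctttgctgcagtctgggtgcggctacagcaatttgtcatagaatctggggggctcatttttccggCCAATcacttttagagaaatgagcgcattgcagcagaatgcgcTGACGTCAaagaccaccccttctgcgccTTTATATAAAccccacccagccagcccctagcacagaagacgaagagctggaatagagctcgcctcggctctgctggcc

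The small RNA genes that lie within these hosts had almost no counts. The 13 snoRNA genes inside Rian had 0 counts in all 7 libraries, its 4 microRNA genes had 1 read in all, and the 14 microRNA genes inside Mirg had 2. The 10 snoRNA genes inside Gas5 and the 8 inside Snhg1 had 0 counts. Processed snoRNAs and microRNAs carry no poly(A) tail, and polyadenylated RNA was sequenced. How reads were assigned on exon bases that a host shares with a small RNA gene is not given in the sources used here, so these low counts do not show that no reads lay there.

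H19 (ENSMUSG00000000031) is an imprinted RNA made from the maternal chromosome, spliced and exported, and is best known from fetal tissue and regenerating muscle. It lies on chromosome 7 from 142575529 to 142578143 on the minus strand. H19 was at 185, 247, 371 and 463 CPM in DMSO mice 480 to 483 and at 673, 306 and 972 CPM in ABT-263 mice 476 to 478. ABT-263 mice 476 and 478 were above all DMSO mice and mouse 477 was within their range. The means were 316 ± 125 CPM (SD, n = 4) and 651 ± 333 CPM (SD, n = 3), and the log2 fold change was 1.04 (SE 0.43, 95% interval 0.05 to 2.03), with an adjusted p of 0.112 from edgeR that missed the threshold. It passed without ABT-263 mouse 477 (log2 fold change 1.40, adjusted p = 0.0341) and in the DESeq2 Wald test (adjusted p = 0.0498), and without ABT-263 mouse 478 the log2 fold change was 0.64 (adjusted p = 0.355 from edgeR). The 10 fibroblast markers summed to 6318, 4440, 4929 and 5807 CPM in DMSO mice 480 to 483 and to 7933, 7664 and 10549.9 CPM in ABT-263 mice 476 to 478. The ABT-263 mice stood in the same order as for H19 and the DMSO mice did not, since mouse 480 had the most fibroblast signal and the least H19 of that group. Of these markers 4 (Pdgfra, Lum, Col1a2 and Vim) were called higher and 0 lower, beside 12.4% and 11.7% of all genes tested. The part of the markers in the H19 value was not tested.

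The first exon of H19 carries the hairpin of miR-675, and its mature arms are printed here to show what the transcript encodes, with the seed (bases 2 to 8) in capitals (RefSeq, GRCm38.p6). The arms lie at chr7:142577112-142577133 and chr7:142577078-142577099 on the minus strand and do not share a seed. The microRNA gene itself had 0 counts.
mmu-miR-675-5p: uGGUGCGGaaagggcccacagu
mmu-miR-675-3p: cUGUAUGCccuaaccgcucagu

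Gas5 (ENSMUSG00000053332) and Snhg1 (ENSMUSG00000108414) are hosts of box C/D snoRNAs, which guide methylation of ribosomal RNA, and their spliced transcripts leave the nucleus. Gas5 lies on chromosome 1 from 161034422 to 161038539 and Snhg1 on chromosome 19 from 8723475 to 8726443, both on the plus strand. Some annotated transcripts retain introns, and 17.8% of the exon bases of Gas5 and 20.9% of those of Snhg1 are shared with the snoRNA genes. Both were called lower, with ratios of DMSO to ABT-263 of 1.35 for Gas5 and 1.32 for Snhg1, close to the threshold.

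Gas5 was at 226, 239, 218 and 221 CPM in DMSO mice 480 to 483 and at 168, 189 and 147 CPM in ABT-263 mice 476 to 478. All ABT-263 mice were below all DMSO mice. The means were 226 ± 9.39 CPM (SD, n = 4) and 168 ± 20.6 CPM (SD, n = 3), with a log2 fold change of -0.43 (SE 0.13, adjusted p = 0.0497 from edgeR). With each mouse left out in turn Gas5 passed in 0 of 7 fits, with adjusted p-values from 0.0557 (without ABT-263 mouse 477) to 0.153 (without ABT-263 mouse 478), and it did not pass on total counts without TMM factors (0.106).

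Snhg1 was at 51.7, 60.5, 56.3 and 50.8 CPM in DMSO mice 480 to 483 and at 42.9, 44.7 and 36.9 CPM in ABT-263 mice 476 to 478. Here too the groups did not overlap. The means were 54.8 ± 4.52 CPM (SD, n = 4) and 41.5 ± 4.10 CPM (SD, n = 3), with a log2 fold change of -0.40 (SE 0.12, adjusted p = 0.0487 from edgeR). Snhg1 passed in 0 of the 7 fits with a mouse left out, with adjusted p-values from 0.0544 (without DMSO mouse 480) to 0.161 (without ABT-263 mouse 478), and its adjusted p was 0.144 on total counts and 0.0556 in the DESeq2 Wald test.

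The promoters of both hosts are printed side by side because the hosts moved together (RefSeq, GRCm38.p6, plus strand, chr1:161034916-161035215 for the second start site of Gas5 and chr19:8723237-8723536 for Snhg1). Of the 2 start sites listed for Gas5, the second is shown because it held one of the 3 motifs searched and the first held none. This Gas5 promoter held a cAMP response element and the Snhg1 promoter a TATA box read on the other strand, each in capitals, so the promoters shown shared none of these motifs.
Gas5 promoter: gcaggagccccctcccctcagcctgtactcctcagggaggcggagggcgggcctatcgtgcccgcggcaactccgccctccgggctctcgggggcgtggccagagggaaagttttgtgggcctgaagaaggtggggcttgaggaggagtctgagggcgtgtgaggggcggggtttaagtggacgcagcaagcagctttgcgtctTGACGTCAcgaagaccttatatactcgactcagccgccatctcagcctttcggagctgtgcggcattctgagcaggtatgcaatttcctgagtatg
Snhg1 promoter: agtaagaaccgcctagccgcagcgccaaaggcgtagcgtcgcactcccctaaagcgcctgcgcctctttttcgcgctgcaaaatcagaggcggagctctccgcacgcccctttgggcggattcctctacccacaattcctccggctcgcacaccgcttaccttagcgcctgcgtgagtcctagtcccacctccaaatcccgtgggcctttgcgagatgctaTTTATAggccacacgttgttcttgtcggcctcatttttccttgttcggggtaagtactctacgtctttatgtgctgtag

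The members were also set side by side by where the RNA is kept. Malat1 and Kcnq1ot1 are nuclear but chose the list, so they are left out of this comparison. The other nuclear members had log2 fold changes of -0.86 (Meg3), -0.68 (Miat), -0.44 (Neat1), 0.17 (Mirg) and 0.19 (Rian). The 3 spliced and exported ones (H19, Gas5 and Snhg1) ran from -0.43 to 1.04 with a median of -0.40. The difference between the groups of RNAs was not tested.

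Per kilobase of annotated exon, the DMSO means spanned Malat1 at 346 CPM per kb and Mirg at 0.0887 CPM per kb. The length used joins the exons of all annotated transcripts of a gene, which took in 100% of the span of Snhg1 and 91.3% of that of Gas5. Genes with shorter spliced transcripts can therefore be understated beside Malat1 and Neat1, whose longest transcripts have no intron, so the order below is a rough one. H19 followed Malat1 at 129 ± 50.7 CPM per kb (SD, n = 4), Neat1 was at 62.8 ± 1.10, Gas5 at 60.1 ± 2.50, Snhg1 at 18.5 ± 1.52 and Meg3 at 1.86 ± 0.576 CPM per kb. The DMSO mice overlapped between Neat1 and Gas5, and also among Kcnq1ot1, Miat and Rian, at 0.443 ± 0.0787, 0.371 ± 0.116 and 0.360 ± 0.147 CPM per kb. After ABT-263 the means were 264 CPM per kb for H19 and 100 CPM per kb for Malat1, so the order of the top pair was turned.

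The DMSO mice were not alike for all members. In DMSO mice 482 and 483, Malat1, Meg3, Rian, Mirg and H19 were each higher than in both DMSO mice 480 and 481, by 1.74, 1.59, 2.01, 1.96 and 1.93 times in the ratio of the pair means. Neat1, Kcnq1ot1, Miat, Gas5 and Snhg1 did not show this order. It was found in 16.8% of all genes tested, and the reverse order in 15.6%.

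Genes whose level followed a member most closely over the 7 mice were taken from 15545 genes with a mean of at least 1 CPM and a count in every mouse, by Pearson correlation of log2 CPM, as a description in which the points share their libraries. For Malat1 these were Gm37423 (r = 0.9971), Mtdh (0.9942) and the pseudogene Atp5k-ps2 (0.9940), and for Neat1 Tomm6 (0.9968), Gm32856 (0.9944) and Lsm6 (0.9919). For Meg3 they were Gm10115 (0.9855), D730003I15Rik (0.9814) and Mettl26 (0.9774), and for Gas5 the pseudogene Rpl7-ps7 (0.9952), Snrpd1 (0.9943) and Gm44916 (0.9937). All of these genes had negative log2 fold changes after ABT-263, from -2.69 (Gm37423) to -0.41 (Rpl7-ps7). The difference between the treatment groups enters the correlations, and the highest of so many over 7 mice lie near the maximum.

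Proteins that work with these RNAs were followed in lists. The speckle and end-processing list holds splicing-speckle proteins and factors that cut or bind the end of Malat1. Of its 15 genes, 9 were called lower and 0 higher, beside 11.7% and 12.4% of all genes tested. The median log2 fold change was -0.62 beside 0.0022 over all genes. The largest falls were those of Rbm25 (-1.43, adjusted p = 0.00744 from edgeR), Pnisr (-1.21, adjusted p = 0.00807) and Snrnp70 (-0.99, adjusted p = 0.0164), all of them splicing-related. Rbm25 and Pnisr passed in each of the 7 fits with a mouse left out and Snrnp70 in 5, and without ABT-263 mouse 478 the list's count was 4.

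Of the 18 paraspeckle proteins tested, 5 were called lower and 1 higher (11.7% and 12.4% of all genes tested), with a median of -0.19. The 3 core proteins that bind Neat1 did not pass the threshold, with log2 fold changes of 0.24 for Nono (adjusted p = 0.168 from edgeR), -0.21 for Sfpq (0.277) and 0.29 for Pspc1 (0.217). Rbm4b (-1.05), Nudt21 (-1.05), which takes part in choosing poly(A) sites, and Rbm14 (-1.04) were called lower, each in all 7 fits with a mouse left out, as were Smarca4 (-0.72) and Taf15 (-0.64) with all mice, and Hnrnpf was higher (0.84).

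Among 14 proteins of snoRNA particles, 4 were lower and 0 higher (11.7% and 12.4% of all genes tested), with a median of -0.01. Dkc1 (-0.77) and Nop10 (-0.68), parts of the box H/ACA particle that makes pseudouridine, and Nop58 (-0.68, adjusted p = 0.0331 from edgeR), a core protein of the box C/D particle, were lower, as was Snu13 (-0.47), which binds the snoRNA itself. The other box C/D core proteins were not called, with 0.34 for Fbl (adjusted p = 0.234) and 0.20 for Nop56 (adjusted p = 0.346). The count was 2 without any one of DMSO mice 481, 482 and 483 or ABT-263 mice 476 and 478, and Nop58 lost its call without each of these.

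Nonsense-mediated decay, which removes the spliced transcripts of snoRNA hosts, was covered by 15 factors with a median of -0.20. Of these factors 5 were lower and 1 higher, beside 11.7% and 12.4% of all genes tested. Upf3b (-1.34, adjusted p = 0.00711 from edgeR) and Rbm8a (-0.80, adjusted p = 0.0116), which link decay to exon junctions, were lower, as were Upf2 (-0.72) and Smg6 (-0.42), and Smg8 was higher (0.80, adjusted p = 0.0265). Upf1, the central helicase, was not called (-0.19, adjusted p = 0.324). Without DMSO mouse 482, DMSO mouse 483 or ABT-263 mouse 478, 3 factors were lower and 0 higher.

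Other RNAs of the same kinds leaned the same way, as did long noncoding RNAs as a class. In that class of 1280, 14.8% were lower and 1.48% higher, with a median of -0.44, beside 11.7% and 12.4% of all genes tested. Of 17 further snoRNA hosts, 6 were lower and 0 higher (median -0.40), led by Snhg9 (-1.81, adjusted p = 0.0172 from edgeR), Snhg20 (-1.51, adjusted p = 0.00836) and Snhg11 (-1.19, adjusted p = 0.0404). Snhg20 passed with each mouse left out, and the count was 2 without ABT-263 mouse 476 or 478 and 3 without DMSO mouse 482 or 483. Of 17 further nuclear or imprinted long noncoding RNAs, 4 were lower and 1 higher (median -0.40), with Mir99ahg (-1.65, adjusted p = 0.00673), a microRNA host, and Ftx (-1.29, adjusted p = 0.0261) and Jpx (-1.21, adjusted p = 0.0163), of the X-inactivation center, the lowest called. Dleu2 (-1.14) was lower too, and Tug1 (0.42) was higher. The count of lower RNAs was 1 without ABT-263 mouse 478 and 2 without ABT-263 mouse 476, ABT-263 mouse 477 or DMSO mouse 482. Both lists of 17 include the same snoRNA host, Snhg14, which was not called.

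**Figure D2:**
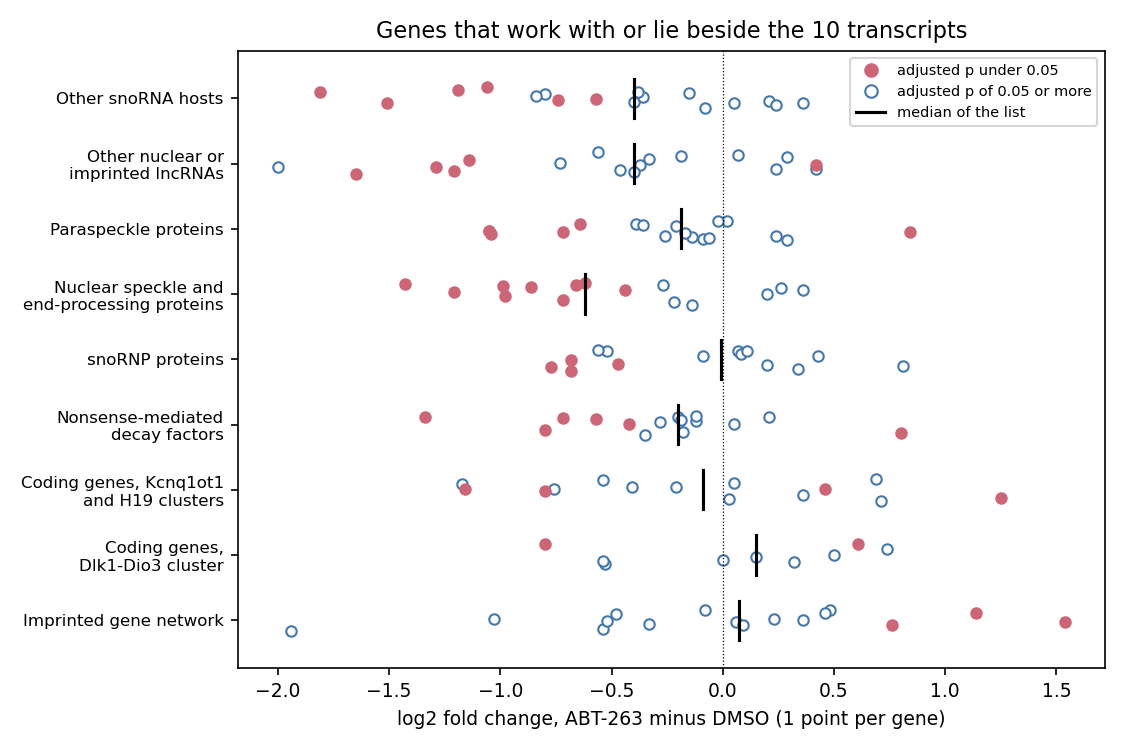
Log2 fold change (ABT-263 minus DMSO, x axis) of each tested gene in 9 companion lists, filled red where the adjusted p was under 0.05, with a black line at the list's median. The speckle and end-processing list has its median at -0.62 with 9 of 15 genes called lower, beside 11.7% of all genes tested. The lists of imprinted protein-coding genes spread to both sides of 0.

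Protein-coding neighbours of the imprinted RNAs held calls in both directions, as did all genes tested (12.4% higher and 11.7% lower). Kcnq1, a potassium channel gene that contains Kcnq1ot1 on its other strand, was at 1.06, 0.969, 2.05 and 1.15 CPM in DMSO mice 480 to 483 and at 3.22, 2.75 and 3.33 CPM in ABT-263 mice 476 to 478. All ABT-263 mice were above all DMSO mice, opposite to Kcnq1ot1, with a log2 fold change of 1.25 (SE 0.32, adjusted p = 0.0288 from edgeR). The call was lost without DMSO mouse 480, 481 or 483 or ABT-263 mouse 476 or 478, with adjusted p-values up to 0.0864. The genes share 121 exon bases on opposite strands, and counting was strand-specific. Cdkn1c, a cell cycle inhibitor silenced by Kcnq1ot1 on the paternal chromosome, was not called (log2 fold change 0.36, adjusted p = 0.328), nor was Phlda2, another of its targets (0.05, adjusted p = 0.948).

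In the Kcnq1ot1 and H19 clusters together, 14 of 17 protein-coding genes were tested, with a median of -0.09. There were 2 higher (Kcnq1 and Cd81 at 0.46) and 2 lower (Tnnt3 at -1.16 and Tssc4 at -0.80), beside 12.4% and 11.7% of all genes tested. Without ABT-263 mouse 478, 0 were lower and 1 higher, and without DMSO mouse 481 or 483 or ABT-263 mouse 476, 1 was lower and 0 higher. Without DMSO mouse 482, 1 was lower and 1 higher. Tnnt3 is a fast skeletal muscle gene, and the 10 muscle markers summed to 36707 to 73795 CPM after DMSO and 28430 to 38083 CPM after ABT-263. Igf2, the fetal growth factor that shares an enhancer with H19, had 2 to 15 counts per library, at 0.123 to 0.370 CPM after DMSO and 0.0715 to 0.322 CPM after ABT-263, too few to be tested.

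Around Meg3, Rian and Mirg, 9 of 10 protein-coding genes were tested, with a median of 0.15. Of these, 1 was higher and 1 lower, beside 12.4% and 11.7% of all genes tested. The called genes were Yy1 (0.61, adjusted p = 0.0130 from edgeR), a transcription factor gene at the edge of the region, and Wdr25 (-0.80, adjusted p = 0.0216), and Wdr25 lost its call without DMSO mouse 482 or 483 or ABT-263 mouse 476 or 478. The imprinted genes themselves were near the limit of detection: Dlk1 (log2 fold change -0.54, adjusted p = 0.656) and Dio3 (0.32, adjusted p = 0.669) were not called, and Rtl1 was not tested. In the wider imprinted gene network, 3 of 16 genes tested were higher, namely Mest (1.54, adjusted p = 0.0162), Sgce (1.14, adjusted p = 0.0173) and Gnas (0.76, adjusted p = 0.0376), and 0 were lower, with a median of 0.08. Without ABT-263 mouse 478, 1 was higher.

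Where a list had 0 calls in a direction in edgeR, counts at an unadjusted p under 0.05 and in the DESeq2 Wald test were as follows. Higher snoRNA hosts numbered 0 and 0, higher speckle and end-processing genes 1 and 0, higher snoRNA particle genes 2 and 1, and lower genes of the imprinted gene network 1 and 2. For higher satellite cell markers, lower fibroblast markers and higher TEC genes inside introns both counts were 0.

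**Figure D3:**
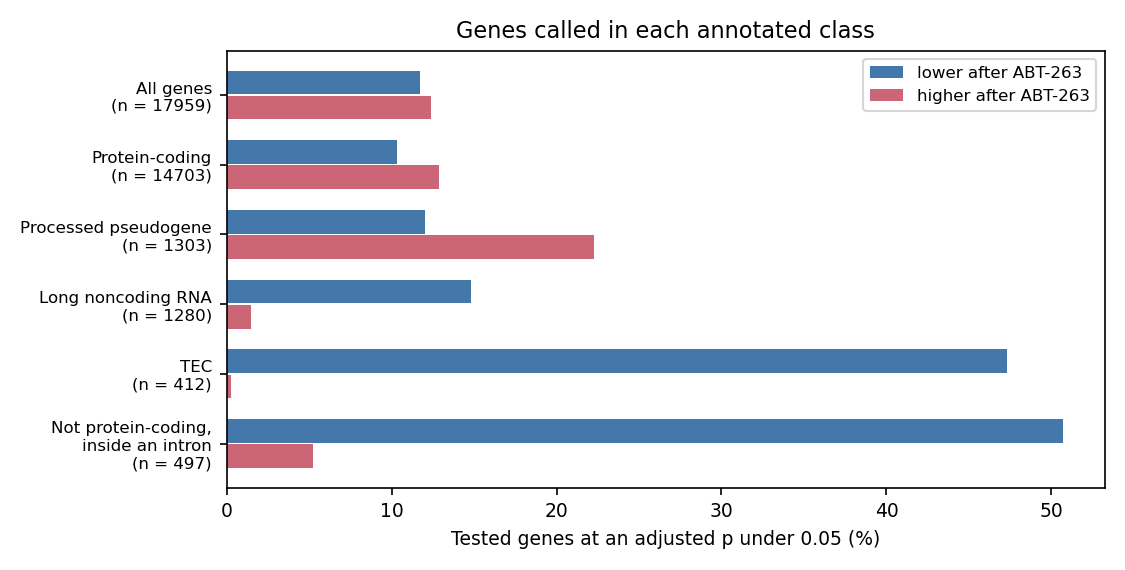
Share of tested genes (x axis, percent) called lower (blue) or higher (red) after ABT-263 in each annotated class. Long noncoding RNAs (14.8% lower, 1.48% higher), TEC genes (47.3% lower, 0.243% higher) and genes inside introns (50.7% lower, 5.23% higher) lie on the lower side, whereas protein-coding genes (10.3% lower, 12.9% higher) do not.

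The annotated classes of genes differed in direction. Of 1280 long noncoding RNAs tested, 190 (14.8%) were lower and 19 (1.48%) higher, with a median log2 fold change of -0.44, beside -0.42 for the 8 members that did not choose the list. Of 14703 protein-coding genes, 10.3% were lower and 12.9% higher, with a median of 0.04. Processed pseudogenes, another class without annotated proteins, went the other way, with 291 (22.3%) of 1303 higher, 156 (12%) lower and a median of 0.20. Of the long noncoding RNAs, 60 were lower without ABT-263 mouse 478, 88 without ABT-263 mouse 476, and 111, 80 and 89 without DMSO mice 481, 482 and 483, and with any 1 mouse left out between 4 and 18 were higher.

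The class that fell most is made of TEC genes, single-exon models that the annotation holds until they are tested by experiment. Of 412 tested, 195 (47.3%) were lower and 1 higher, with a median of -1.60, and without ABT-263 mouse 478, DMSO mouse 482 or DMSO mouse 483 the lower ones numbered 82, 116 and 121. Many lie within introns of other genes. After these values had been seen, 497 tested genes were picked that are not protein-coding and lie inside an intron of 1 tested protein-coding gene on the same strand, without a shared exon base. Of them, 252 were lower and 26 higher, with a median of -1.69, while their host genes had a median of 0.03, and 429 of the 497 had a lower log2 fold change than their host. Of the 497, 94 were lower without ABT-263 mouse 478, 164 without ABT-263 mouse 476, and 164, 139 and 152 without DMSO mice 481, 482 and 483. The 497 together summed to 4381, 4150, 4262 and 4060 CPM in DMSO mice 480 to 483 and to 3353, 3394 and 2914 CPM in ABT-263 mice 476 to 478. The 249 TEC genes among them summed to 392, 559, 503 and 517 CPM in DMSO mice 480 to 483 and to 173, 164 and 94.0 CPM in ABT-263 mice 476 to 478, so the groups did not overlap in either sum. Of these TEC genes, 158 were lower and 0 higher, and 65, 95 and 100 were lower without ABT-263 mouse 478, DMSO mouse 482 and DMSO mouse 483. Kcnq1ot1 lies in intronic sequence too, but on the strand opposite to its host gene. The part of this shift in the members' values was not tested.

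Runs of A moved with the changes as well. Of the tested genes with an annotated transcript sequence, 1951 of 17942 (10.9%) held a run of 12 or more A, as Malat1, Kcnq1ot1, Meg3 and Rian do. Their median log2 fold change was -0.24 and 23.9% were lower, against 0.03 and 10.2% for genes without. The 466 lower genes with a run became 225 without ABT-263 mouse 478, 306 without ABT-263 mouse 476 and 262 and 286 without DMSO mice 482 and 483. Among long noncoding RNAs, 31.8% of those with a run were lower, with a median of -0.83, and 12.5% of those without, with a median of -0.40. Of the members with a run, Meg3 was called lower, Rian was not called, and Malat1 and Kcnq1ot1 chose the list. Of those without, Gas5 and Snhg1 were called lower, close to the threshold, and Neat1, Mirg, H19 and Miat were not called. The part of these runs in the members' values was not tested.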

How the data were processed

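Polyadenylated RNA of whole skin was sequenced for 4 DMSO-treated and 3 ABT-263-treated mice. The authors aligned reads to mm10 with STAR 2.7.9a and used featureCounts (Subread 1.6.2) to count proper pairs with a unique alignment on the gene's strand, for Ensembl genes outside the mitochondrial genome. The submitters' processing notes name the same tools and build. The deposited counts are whole numbers without normalization or filter. A second deposited table, made by the authors with DESeq2 1.23.10, holds values after variance stabilization, near a log2 scale, and served as an alternative. The labels and the methods name different RNA extraction kits.

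The members and gene lists were chosen with earlier results of these data known. Counts were analysed in R 4.3.3 with edgeR 4.0.16 (TMM, filterByExpr, robust quasi-likelihood test, two-sided, Benjamini-Hochberg adjustment over 17959 genes, threshold 0.05). Alternatives were DESeq2 1.42.0, limma 3.58.1, other scalings and filters, thinning, leave-one-mouse-out fits and removal of length and GC trends with mgcv 1.9.3. The edgeR script was tested on simulated data. Symbols, exons and positions are those of GENCODE M21 (GRCm38), not the annotation the authors used, in which 55190 identifiers were found, and promoters and microRNAs from RefSeq on GRCm38.p6 (8 of 10 members had a promoter entry). Snhg4, Snhg7, Cytor, Gm26917 and Krt85 were not matched. Named are all members, the 3 called genes of largest change per list, 14 fixed partner genes and the 3 genes most alike to Malat1, Neat1, Meg3 and Gas5. Other genes named complete counts of 5 or fewer, picked with their values in view, and some genes of the lists are not reported here by name. Sets of genes inside introns and with runs of A were chosen after values were seen, as were the alternatives run on them, on gene classes and on lists. No batch is named in the labels.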

Additional observations from a re-analysis of the deposited data

Results flagged for a closer look

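Miat was the only member in which 1 of the 4 DMSO mice stood far from the others: mouse 481, at 5.06 CPM beside 2.74 to 3.03 CPM in the other DMSO mice, lay apart by 0.876 of the group's range (Dixon's ratio, above its 5% critical value). All 10 members were examined in this way, and chance exceeds the critical value in about 1 of 20 groups.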

How the results depend on the processing

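The number of the 8 RNAs called, 3 with TMM, was 1 with DESeq2's size factors, 1 on total counts, 1 with every gene with a count tested and 1 on the variance-stabilized values, and 0 to 2 with each mouse left out. The number of all genes called, 4342, was 3388 to 5698 under the other settings and 1735 to 4169 with each mouse left out, where fewer mice entered the fit. Of 159 refits of the members, 157 kept the direction. With each mouse left out, Rian ran from -0.04 (without DMSO mouse 481) to 0.36, Mirg from -0.03 (without DMSO mouse 480) to 0.42, Phlda2 from -0.29 (without ABT-263 mouse 477; -0.05 and -0.23 without DMSO mice 481 and 483) to 0.31, and Dlk1 from -1.61 to 0.17 (without DMSO mouse 483). The DESeq2 Wald test called 58 long noncoding RNAs higher, against 19. With at least 10 counts required in every mouse, fewer genes were tested, and 130 genes inside introns and 102 TEC genes were lower, against 252 and 195. The cause of the other shifts was not tested. No paired analysis was possible because the treatment groups share no mouse number. Mirg and Miat, at 9 to 35 and 16 to 132 counts per library, had the least depth.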

Other observations

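Other cell types measured beside the 10 RNAs moved to both sides. Among all genes tested, 12.4% were called higher and 11.7% lower. The 7 endothelial markers tested summed to 180 to 415 CPM after DMSO and 564 to 708 CPM after ABT-263, with 6 higher. Schwann cell and nerve markers summed to 122 to 215 CPM and 106 to 118 CPM, with 2 of 6 lower, S100b among them. The 10 keratinocyte markers summed to 28890 to 69798 CPM after DMSO and 19942 to 60649 CPM after ABT-263, with Itga6 higher and Krt15 lower. Adipocyte (1005 to 2421 and 924 to 2465 CPM), T cell (11.1 to 20.6 and 9.95 to 39.4 CPM) and red blood cell markers (158 to 276 and 135 to 1747.5 CPM) overlapped between the groups, with 0 called in edgeR. At an unadjusted p under 0.05, 2 adipocyte and 1 red blood cell gene were higher, and the DESeq2 Wald test called 1 adipocyte and 1 T cell gene higher. Hair follicle markers summed to 2436 CPM in DMSO mouse 481, 444 CPM in ABT-263 mouse 478 and 3.25 to 27.8 CPM in the other mice, with 0 called in edgeR, 1 lower at an unadjusted p under 0.05 and 1 lower in the DESeq2 Wald test.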
